A study of Mus musculus with 7 samples.

Results

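The S100 genes encode small calcium-binding proteins, and 8 of them were followed here through libraries of mouse granulocytes that were knockout or wild type for Alox15: S100a1, S100a4, S100a6, S100a8, S100a9, S100a10, S100a11 and S100a13. They were chosen as the rows of the deposited count table whose Ensembl gene identifier carries one of these symbols, which gave 8 of 51789 genes, and all 8 were expressed highly enough to be among the 12506 genes tested. The knockout group held 3 libraries and the wild-type group 4, all labelled untreated, and RNA was read as tags near the 3′ end of polyA transcripts. Alox15 encodes a lipoxygenase that oxidises polyunsaturated fatty acids, and the series title concerns ferroptosis of tumour-associated neutrophils. The sources used here do not give the tissue, strain, age or sorting of the cells, the deleted part of Alox15, or whether replicates were separate animals. The p-values therefore speak only to how far these libraries scatter, part of which may be technical.

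S100 proteins carry EF-hand loops that bind calcium, work mostly as dimers, and pass calcium signals to target proteins inside the cell. S100a8 and S100a9 encode the partners of calprotectin, the heterodimer that fills the cytosol of neutrophils, withholds zinc and manganese from microbes and, once released, acts on Toll-like receptor 4 as an alarm signal. The other members are found in many cell types, where they bind annexins, myosin and other proteins of the membrane and cytoskeleton.

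All 8 genes are protein-coding and lie on chromosome 3 (GRCm38, GENCODE M21). S100a1 (minus strand, 90511034 to 90514392) and S100a13 (plus strand, 90514435 to 90524581) stand head to head with 42 bases between them. They are followed by S100a4 (plus strand, 90603771 to 90606045), S100a6 (plus strand, 90612882 to 90624181), S100a8 (plus strand, 90668978 to 90670035) and S100a9 (minus strand, 90692632 to 90695721). These 6 genes span 184.7 kb. S100a11 (plus strand, 93520488 to 93526287) and S100a10 (plus strand, 93555080 to 93564643) lie 2825 kb beyond S100a9, with 28.8 kb between them. The processed pseudogene S100a11-ps had 0 counts in every library, and reads of S100a11 could still be shared with it. Exons of S100a4 overlap 302 bases of the predicted gene Gm42674, which also had 0 counts.

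The promoters of S100a8, S100a9 and S100a11 are shown because these members varied most from library to library among the high ones, and that of S100a4 because it did not follow them. Each stretch runs from 250 bases before to 50 bases after the annotated start site, 5′ to 3′ on the gene's strand, from RefSeq on GRCm38.p6. Windows were on hand for 7 of the 8 members. Capitals mark the TATA box letters TATAAA on the gene's strand and the C/EBP-like letters TTNNGNAA on either strand. The windows are chr3:90668821-90669120 (plus) for S100a8, chr3:90695672-90695971 (minus) for S100a9, chr3:93520246-93520545 (plus) for S100a11 and chr3:90603520-90603819 (plus) for S100a4.
S100a8: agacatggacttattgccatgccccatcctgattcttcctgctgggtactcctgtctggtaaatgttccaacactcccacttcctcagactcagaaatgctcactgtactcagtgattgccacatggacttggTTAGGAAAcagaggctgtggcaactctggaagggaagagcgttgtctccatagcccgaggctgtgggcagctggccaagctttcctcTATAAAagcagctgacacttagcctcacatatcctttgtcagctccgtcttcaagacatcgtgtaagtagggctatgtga
S100a9: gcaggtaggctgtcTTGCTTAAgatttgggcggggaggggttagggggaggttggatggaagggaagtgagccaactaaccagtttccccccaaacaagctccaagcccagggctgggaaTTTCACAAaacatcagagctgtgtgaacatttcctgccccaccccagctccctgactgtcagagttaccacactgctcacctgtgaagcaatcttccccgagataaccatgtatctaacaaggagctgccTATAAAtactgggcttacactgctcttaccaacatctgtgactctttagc
S100a11: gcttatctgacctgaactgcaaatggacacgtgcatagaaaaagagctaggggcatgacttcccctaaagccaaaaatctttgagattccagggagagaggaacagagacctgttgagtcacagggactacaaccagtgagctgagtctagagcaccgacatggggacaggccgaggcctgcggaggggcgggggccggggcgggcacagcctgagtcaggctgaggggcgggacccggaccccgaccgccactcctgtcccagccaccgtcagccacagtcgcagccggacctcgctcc
S100a4: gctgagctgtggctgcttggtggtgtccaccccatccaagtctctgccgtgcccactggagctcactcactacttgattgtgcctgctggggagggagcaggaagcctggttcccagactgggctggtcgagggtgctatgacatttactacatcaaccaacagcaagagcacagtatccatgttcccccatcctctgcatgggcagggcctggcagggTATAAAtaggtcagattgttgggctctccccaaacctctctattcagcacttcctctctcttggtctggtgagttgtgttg

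The C/EBP-like letters, a loose form of the site of a factor family that acts in myeloid cells, were found in S100a8 and S100a9 and in none of the other 5 windows. In S100a8 the match began at position -117 and in S100a9 at -236 and -130. They occurred in 40.7% of all 32851 promoter windows of this length, so they are common. TATAAA was found in S100a8 at -30, in S100a4 at -31 and in S100a9 at the annotated start itself (+1), against 8.32% of all windows. The letters GAGGAA on either strand, which form part of sites for the myeloid factor PU.1, were found in S100a4, S100a8 and S100a11, against 28.3% of all windows. In S100a8 one such match ended where the TATA box began, and none of the matches overlapped another motif. The windows of S100a1 and S100a13 share 204 bases, since these genes face away from each other. A match is only a match of letters.

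Libraries differed in ways that the genotype did not explain. Totals ran from 3228292 to 5348256 counts in knockout and from 3606843 to 5657192 in wild type. Alox15 itself had 1 count in knockout 1 and 0 in the other 6 libraries, so it does not check the genotype labels. The summed level of 12 mature neutrophil markers was 4637, 4135 and 405 CPM (counts per 1000000 counts, scaled by TMM library sizes) in knockouts 1 to 3, against 6287, 636, 2568 and 2427 CPM in wild types 1 to 4. Knockout 3 and wild type 2 thus stood far below the rest. The summed level of 12 T cell markers was highest in the same pair, at 405, 498 and 985 CPM in knockout and 338, 690, 513 and 656 CPM in wild type. Single T cell markers did not all follow the sum. Cd3d was highest in knockout 3 (441 CPM) and Cd3g in wild type 2 (53.1 CPM). Cd3e was highest in wild type 4 (137 CPM) and Trac in wild type 3 (85.2 CPM). The 13 monocyte and macrophage markers summed to 1707, 876 and 318 CPM in knockout and 622, 246, 603 and 692 CPM in wild type. Of 3 basophil and mast cell markers, Mcpt8 and Fcer1a were at 0 in all 7 libraries, while Cpa3 was present in each, and the list summed to 5.45 to 13.6 CPM in knockout and 1.79 to 24.7 CPM in wild type. Of 4 eosinophil markers Epx was at 0 in all, Prg2 had 2 counts in wild type 1 alone, and Siglecf and Ccr3 were present in each, with sums of 1.17 to 13.6 CPM in knockout and 1.25 to 17.9 CPM in wild type. Of 8 stromal and epithelial markers Epcam was at 0 in all, while Col1a1, Sparc and Pecam1 were present in each, with sums of 153 to 248 CPM in knockout and 93.4 to 283 CPM in wild type. The 5 erythroid markers summed to 629, 688 and 2023 CPM in knockout and 1056, 459, 2010 and 252 CPM in wild type. The 5 B cell markers summed to 38.4 to 92.9 CPM in knockout and 4.18 to 70.9 CPM in wild type. Neutrophil transcripts, which the label granulocytes calls for, were thus present in every library, with T lineage transcripts beside them. In knockout 3 and wild type 2 the T cell sum exceeded the neutrophil sum, and in knockout 3 the erythroid sum did as well. In bulk RNA, fewer cells of a type and less RNA per cell cannot be told apart. Knockouts 2 and 3 also carried another description stem and the sex-linked transcript Xist (382 and 102 CPM, against 0.896 to 6.11 CPM in the other 5 libraries). The sex-linked transcript Ddx3y was at 0.306 and 0.195 CPM in this pair, against 19.3 to 119 CPM in the other 5. The stem, the sex that these transcripts mark and part of the genotype contrast therefore cannot be told apart.

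No S100 gene passed the test of knockout against wild type, and for all 8 members the libraries of one genotype lay further apart than the group means. S100a8 and S100a9 dominated the family in every library. With edgeR's quasi-likelihood test and Benjamini-Hochberg adjustment over 12506 genes, 0 of 8 members were called in either direction, and over all genes 0.00% were called, with no adjusted p below 0.99995. At an unadjusted p under 0.05 there were 0 members, beside 154 genes or 1.23% of all tested. The members' log2 fold changes were above 0 for 5 and below 0 for 3, with a median of 0.17, and over all genes 51.4% were above 0 and 48.6% below, with a median of 0.012. For 0 of the members did the knockout and wild-type libraries separate, where 1.57% of genes separated with knockout higher and 1.57% with knockout lower. DESeq2 called 1 gene over the whole table (354 at an unadjusted p under 0.05) and limma-voom with quality weights 0 (534), and no member was called in either. In the weighted fit S100a4 had an unadjusted p of 0.0456 (limma adjusted p = 0.888).

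**Figure D1:**
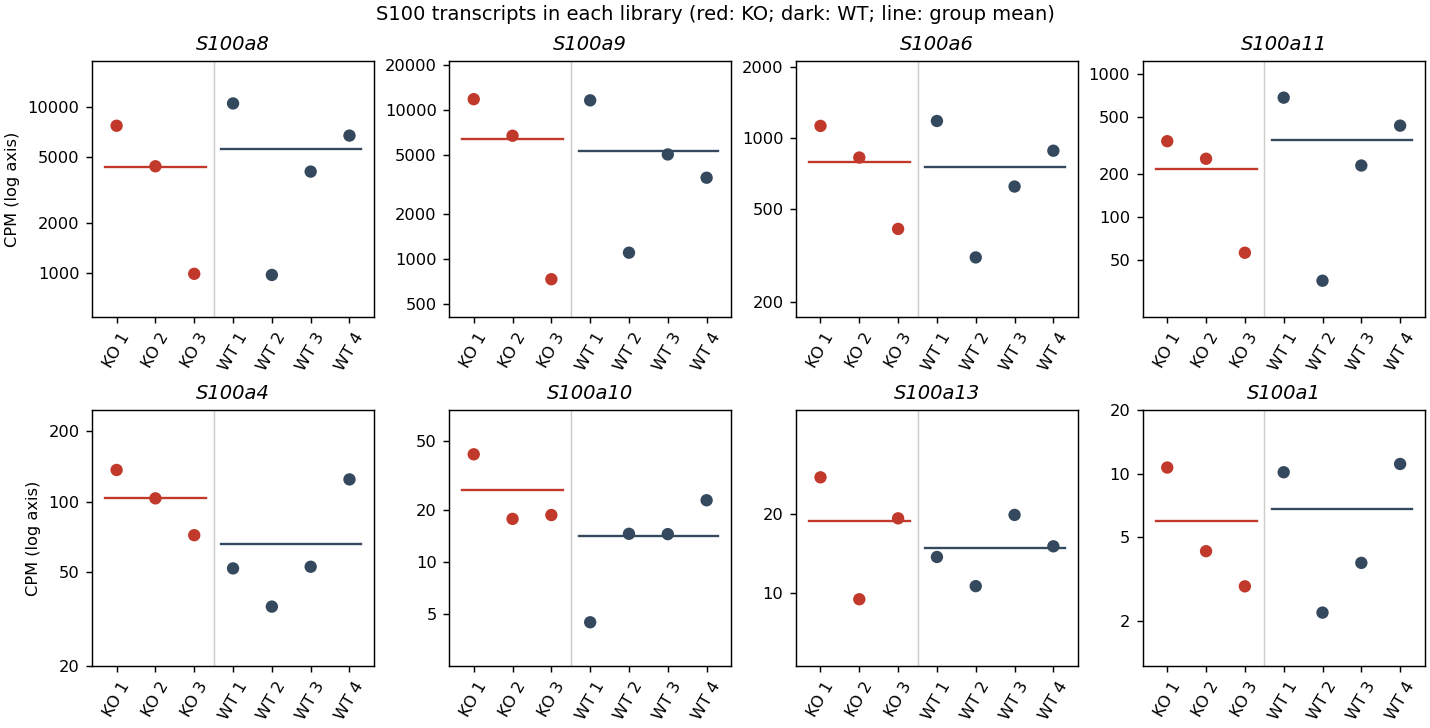
CPM of each S100 gene (log axis, 1 panel per gene) in the 3 knockout libraries (red) and the 4 wild-type libraries (dark), each point 1 library and each line the group mean. Knockout 3 and wild type 2 are the lowest 2 points for S100a8, S100a9, S100a6, S100a11 and S100a1, and the groups overlap in every panel.

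S100a8 stood at 7695, 4385 and 986 CPM in knockouts 1 to 3, against 10487, 970, 4072 and 6714 CPM in wild types 1 to 4. The highest and the lowest value both lay in wild type, and the knockout values fell between them. The log2 fold change of knockout over wild type was -0.35 ± 0.83 (SE), with an unadjusted p of 0.682 in edgeR and no call after adjustment. Its sign turned to 0.11 without wild type 1 and to 0.073 without knockout 3.

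S100a9, the calprotectin partner, stood at 11820, 6726 and 735 CPM in knockout and at 11610, 1107, 5038 and 3519 CPM in wild type. Knockout 1 and wild type 1 were nearly equal at the top, and knockout 3 was at the bottom. Its log2 fold change was 0.27 ± 0.92 (SE; edgeR unadjusted p = 0.775). Without knockout 1 it was -0.51, without wild type 2 -0.065 and without wild type 1 0.95. Its sign and size thus depended on which library was left out.

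The counts of the 8 members together made up 2.08%, 1.25% and 0.221% of all counts in knockouts 1 to 3, and 2.23%, 0.281%, 1.02% and 1.13% in wild types 1 to 4. Within that total, S100a8 and S100a9 took 92.1% in knockout 1 (Wilson 95% interval 91.9 to 92.2%), 90.1% in knockout 2 and 74.8% in knockout 3 (74.0 to 75.6%). In wild types 1 to 4 they took 91.9%, 83.6%, 90.6% and 87.3%. The pair's share was thus lowest in knockout 3 and wild type 2, the libraries with the fewest neutrophil transcripts. Intervals cover counting error only. They can be too narrow even for that, since PCR reads without molecular identifiers are not independent molecules.

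The proportion between the calprotectin partners was not constant. The ratio of S100a8 to S100a9 counts within a library was 0.651, 0.652 and 1.34 in knockouts 1 to 3, against 0.903, 0.877, 0.808 and 1.91 in wild types 1 to 4. S100a9 was the higher in 5 libraries and S100a8 in the other two, knockout 3 and wild type 4. On the log2 scale the ratio averaged -0.27 ± 0.60 (SD, n = 3) in knockout and 0.072 ± 0.58 (SD, n = 4) in wild type. The difference, knockout minus wild type, was -0.34 (exact two-sided permutation p = 0.514 over 35 arrangements, of which the smallest possible p is 0.0286). It was -0.69 without knockout 3 and -0.056 without wild type 4, and neither value passed the exact test. Because the ratio is taken within a library, it does not depend on the scaling of library sizes.

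**Figure D2:**
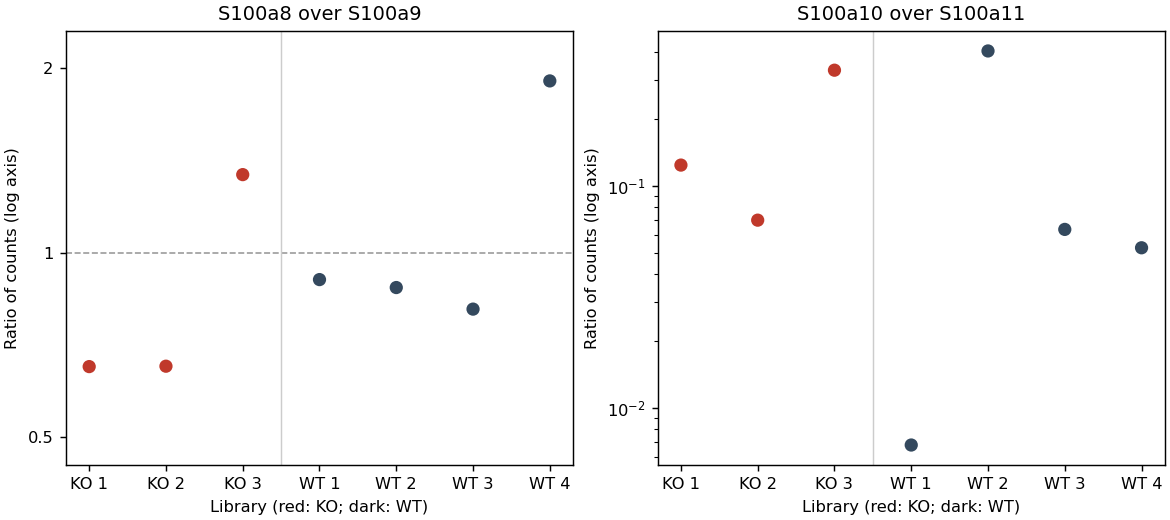
Ratio of counts of S100a8 to S100a9 (left) and of S100a10 to S100a11 (right) in each library, on log axes, with knockout libraries in red and wild-type libraries in dark. The S100a8 ratio lies above 1 in knockout 3 and wild type 4 alone, at 1.34 and 1.91, and the S100a10 ratio runs from 0.00678 in wild type 1 to 0.406 in wild type 2.

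S100a11 encodes calgizzarin, a partner of annexin A1. It stood at 339, 256 and 56.5 CPM in knockout and at 683, 36.0, 229 and 436 CPM in wild type. This was the widest range of the family, 19.0-fold between wild type 1 and wild type 2, both of 1 genotype. Knockout over wild type gave a log2 fold change of -0.67 ± 0.88 (SE; edgeR unadjusted p = 0.464), and leaving out single libraries moved it between -1.15 and -0.14. Against S100a8, however, S100a11 held a narrow proportion, at 4.41%, 5.84% and 5.74% of the S100a8 counts in knockout and 6.51%, 3.72%, 5.64% and 6.49% in wild type.

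S100a6 encodes calcyclin, which binds the calcyclin-binding protein Cacybp and several annexins. Its level was 1125, 825 and 409 CPM in knockout, against 1181, 309, 621 and 882 CPM in wild type. The libraries kept the order seen for S100a8, over a narrower 3.82-fold range. In proportion to S100a8 it was therefore highest where S100a8 was low, at 14.6%, 18.8% and 41.5% of S100a8 counts in knockout and 11.3%, 31.9%, 15.2% and 13.1% in wild type. Its log2 fold change was 0.072 ± 0.50 (SE; edgeR unadjusted p = 0.887), and it was -0.28 without knockout 1.

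S100a4, known as metastasin, binds non-muscle myosin. It stood at 137, 104 and 72.1 CPM in knockout and at 52.0, 35.7, 52.8 and 125 CPM in wild type. Each knockout library exceeded wild types 1 to 3, while wild type 4 lay inside the knockout range. The log2 fold change was 0.65 ± 0.44 (SE), with an unadjusted p of 0.165 in edgeR. Without wild type 4 it was 1.14 (unadjusted p = 0.00780, adjusted p = 1.00 in edgeR), and across 18 alternative settings it lay between 0.41 and 1.14, always above 0 and never called. Set against S100a8, it reached 7.32% of S100a8 counts in knockout 3, the highest, against 0.497% in wild type 1, the lowest.

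S100a10, or p11, is the S100 protein that no longer binds calcium and forms a complex with annexin A2. Its values were 42.0, 17.8 and 18.7 CPM in knockout and 4.48, 14.6, 14.5 and 22.8 CPM in wild type. Knockout 1 was the highest library, with 216 counts, and wild type 1 the lowest, with 15. Exact 95% Poisson intervals were 36.6 to 48.0 CPM in knockout 1 and 2.51 to 7.39 CPM in wild type 1. They take reads as independent molecules and so can be too narrow. Wild type 1 was also the library with the most S100a8 and S100a11. The log2 fold change was 0.89 ± 0.55 (SE; edgeR unadjusted p = 0.135), the furthest from 0 of the 8 members, and 0.37 without knockout 1.

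Beside S100a4 and S100a10, several marker lists also lay on the knockout side, with 0 markers called. Of tested markers, 13 of 13 for monocytes and macrophages were above 0 in log2 fold change (median 0.83), 5 of 5 for B cells (median 0.61), 5 of 5 for erythroid cells (median 0.22) and 4 of 5 for stromal and epithelial cells (median 0.65). Of the tested T cell markers 7 of 10 were above 0, of the mature neutrophil markers 6 of 12 and of the dendritic markers 1 of 3. Over all genes 51.4% were above 0. Groups did not overlap for the stromal list's Sparc and Pecam1, with knockout higher, beside 1.57% of all genes. The groups overlapped for each monocyte and macrophage marker. The monocyte and macrophage sum was highest in knockout 1, as S100a4 and S100a10 were. It was lowest in wild type 2 (246 CPM), as S100a4 was (35.7 CPM), while S100a10 was lowest in wild type 1. Knockout 3 had 318 CPM of these markers beside 72.1 CPM of S100a4 and 18.7 CPM of S100a10. Wild type 1 had 622 CPM of the markers beside 52.0 CPM of S100a4 and 4.48 CPM of S100a10. The part of these cells in the values of S100a4 and S100a10 was not tested. Among the libraries that share a description stem, knockout 1 against the 4 wild types, the log2 fold changes were 0.99 for S100a4 and 1.50 for S100a10 (edgeR adjusted p = 0.980 for both), with the lone knockout library assumed to vary like the wild-type ones.

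S100a13, which takes part in the release of FGF1 and interleukin 1 alpha, was low and the steadiest member. It stood at 27.6, 9.50 and 19.3 CPM in knockout, against 13.7, 10.6, 19.9 and 15.1 CPM in wild type, a 2.91-fold range. Its log2 fold change was 0.35 ± 0.45 (SE; edgeR unadjusted p = 0.457), and it was -0.037 without knockout 1.

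S100a1, best known from heart muscle, was the lowest member. Its counts were 55, 14 and 15 in knockout and 34, 14, 19 and 42 in wild type. These stood for 10.7, 4.29 and 2.92 CPM in knockout and 10.2, 2.19, 3.77 and 11.1 CPM in wild type. Wild type 4, knockout 1 and wild type 1 were high, with exact 95% Poisson intervals from 7.04 CPM upward. The intervals of the other 4 libraries ended at or below 7.19 CPM, so that those of knockout 2 and wild type 1 overlapped slightly. The log2 fold change was -0.17 ± 0.77 (SE; edgeR unadjusted p = 0.825), and its sign changed in 8 of 18 alternative settings. S100a1 and S100a13, though their starts are neighbours, stood in no fixed proportion. S100a1 had 39.0%, 46.0% and 15.6% of the S100a13 counts in knockout and 74.2%, 21.2%, 19.4% and 73.9% in wild type.

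**Figure D3:**
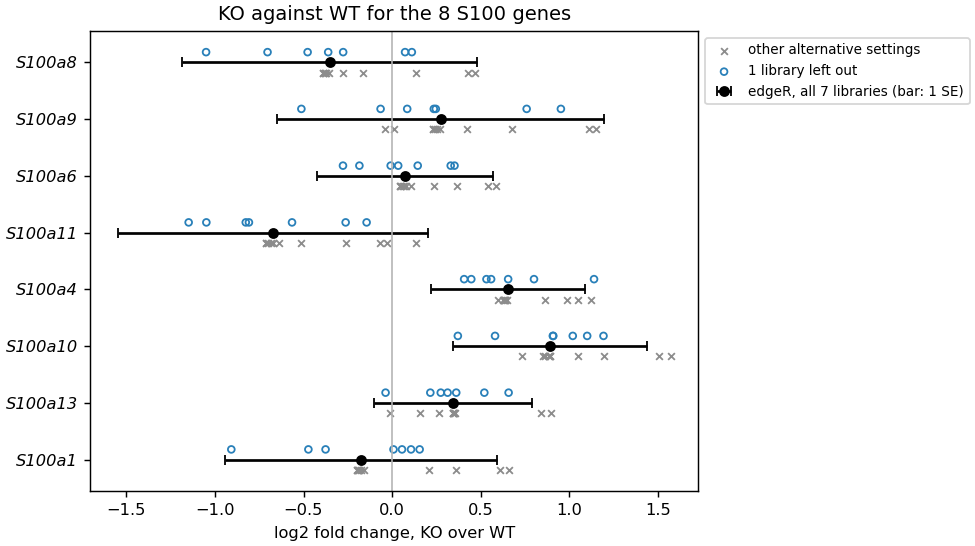
Log2 fold change of knockout over wild type for each S100 gene, with filled points and bars for the edgeR estimate and its standard error, open circles for fits with 1 library left out, and crosses for the other alternatives. S100a4 (0.41 to 1.14) and S100a10 (0.37 to 1.57) stay above 0 in all 18 alternatives and are not called in any, and the other 6 genes have at least 1 alternative on the other side of 0.

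Tags come from 1 place near the 3′ end of a transcript, so levels of different genes were compared as CPM without division by length, and once more per kilobase of exon. By median CPM over the 7 libraries the order was S100a9 (5038), S100a8 (4385), S100a6 (825), S100a11 (256), S100a4 (72.1), S100a10 (17.8), S100a13 (15.1) and S100a1 (4.29). Per kilobase the order was the same except that S100a13 (21.1 CPM per kb) came before S100a10 (14.7 CPM per kb). Neighbours S100a9 and S100a8 did not differ beyond their spread, with a mean within-library log2 difference of 0.075 ± 0.57 (SD, n = 7). Nor did S100a10 and S100a13, at 0.068 ± 0.83 (SD, n = 7), where S100a10 was higher in 4 of 7 libraries. S100a11 exceeded S100a4 in 6 of 7 libraries, wild type 2 being close to equal (36.0 against 35.7 CPM) and knockout 3 the exception (56.5 against 72.1 CPM). The remaining neighbours kept their order in 7 of 7 libraries.

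The members fell into different patterns over the libraries. Knockout 3 and wild type 2 were the lowest libraries for 5 members, S100a8, S100a9, S100a11, S100a6 and S100a1. For S100a4 the lowest were wild types 1 and 2, for S100a10 wild types 1 and 3, and for S100a13 knockout 2 and wild type 2. On the log2 CPM scale, the distance from the highest to the lowest library was 4.23 for S100a11, 4.01 for S100a9, 3.43 for S100a8 and 3.11 for S100a10. It was 2.14 for S100a1, 1.93 for S100a6, 1.93 for S100a4 and 1.50 for S100a13. The median distance was 2.62 over the members and 1.38 over the 8987 genes whose log2 CPM averaged at least 3. S100a1, whose log2 CPM averaged 2.55, counts in the first median but is not among the 8987 genes. Of those genes, 2.68% had a wider distance than S100a11, 6.73% wider than S100a8, 27.8% wider than S100a4 and 44.1% wider than S100a13.

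**Figure D4:**
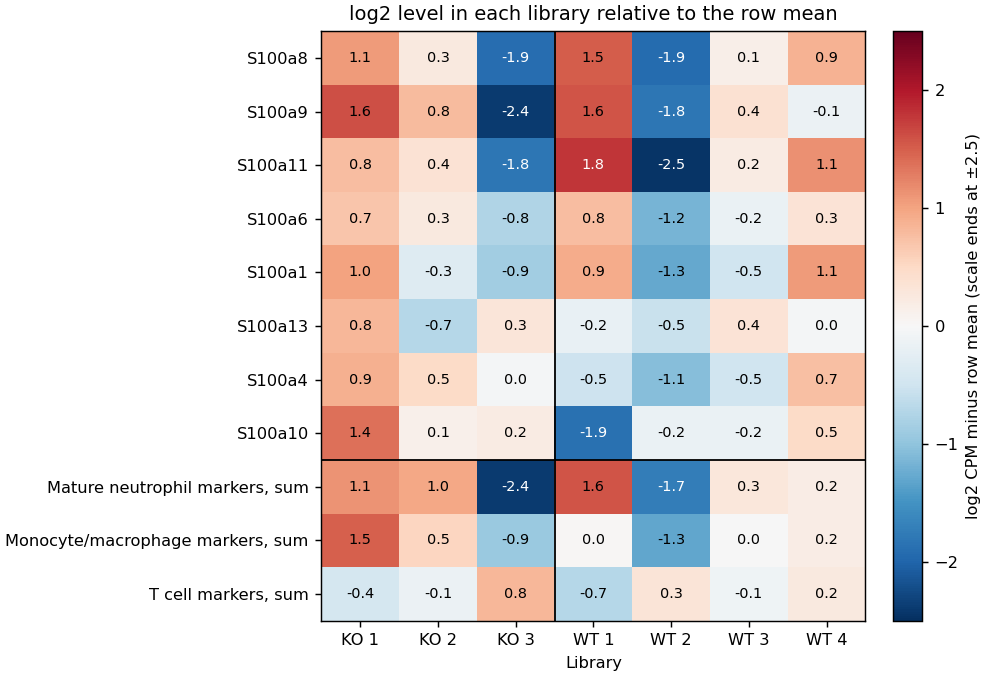
Log2 CPM of each S100 gene, and of the summed markers of 3 cell types, in each library relative to the mean of its row, with knockout libraries to the left of the line. S100a8, S100a9 and S100a11 lie at -1.8 to -2.5 in knockout 3 and wild type 2, as the neutrophil marker sum does at -2.4 and -1.7, while S100a10 lies at 0.2 and -0.2 there and at -1.9 in wild type 1.

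Set against the summed mature neutrophil markers, none of which is an S100 gene, S100a9 kept the closest proportion. The quotient of S100a9 to marker CPM was 2.55, 1.63 and 1.82 in knockout and 1.85, 1.74, 1.96 and 1.45 in wild type, a 1.76-fold range for a gene whose level ranged 16.1-fold. For S100a8 the quotient was 1.66, 1.06 and 2.44 in knockout and 1.67, 1.53, 1.59 and 2.77 in wild type, a 2.61-fold range. It was highest in wild type 4 and knockout 3, the same libraries in which S100a8 exceeded S100a9. The quotient ranged 3.17-fold for S100a11, 5.39-fold for S100a6 and 6.96-fold for S100a1. It ranged 21.5-fold for S100a4, 21.8-fold for S100a13 and 64.8-fold for S100a10, whose levels alone ranged 3.83-, 2.91- and 9.37-fold. Both terms of each quotient come from the same library, and this is a description of 7 libraries.

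The genes whose log2 CPM was most like each member's are given with Pearson's r over the 7 libraries and, after it, r without wild type 2 and knockout 3. They are the highest of 5027 candidates whose log2 CPM averaged at least 5, so no p applies. For S100a8 they were the selectin ligand gene Selplg (0.998 and 0.983), Myadm (0.996 and 0.993) and Sh2d3c (0.995 and 0.968). S100a9 had the interferon-induced antiviral gene Rsad2 (1.00 and 0.999), Nudt4 (0.996 and 0.981) and Sdcbp (0.996 and 0.981). S100a11 had the signalling adaptor gene Tyrobp (0.995 and 0.954), Selplg (0.993 and 0.973) and Junb (0.991 and 0.967), and S100a6 had Trafd1 (0.992 and 0.979), the focal adhesion gene Zyx (0.990 and 0.976) and Tlr2 (0.989 and 0.982). The activation marker Cd69 (0.973 and 0.982), Wfdc17 and Rgs1 came closest to S100a1. Closest to S100a4 were the fatty acid binding protein gene Fabp5 (0.929 and 0.896), Cc2d1b and Usp12. For S100a10 the RNA-binding protein gene Khdrbs1 (0.963 and 0.965), Snf8 and Trnau1ap led, and for S100a13 Bcr (0.926 and 0.969), Top2b and Gpr65. Between members, S100a8 and S100a11 were the most alike (0.986 and 0.932). S100a8 and S100a9 had 0.935, but 0.571 without that pair of libraries, and S100a10 with S100a11 had -0.18 and -0.55.

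Few other S100 genes were expressed. Of 9 further family genes in the table, 0 reached the level for testing. S100a5, S100a14, S100b and S100z had 0 counts in all 7 libraries. S100a3 was the highest of the rest, at 0.00, 6.43 and 1.36 CPM in knockout and 0.299, 1.72, 1.19 and 3.18 CPM in wild type. S100a2, S100a7a, S100a16 and S100g stayed at or below 1.95 CPM in every library.

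Proteins that receive or pass on the extracellular S100A8/A9 signal were tested as 7 genes, of which 4 lay above 0 and 3 below in log2 fold change (median 0.051) and 0 were called. Cd14, the Toll-like receptor 4 co-receptor, stood at 573, 378 and 53.8 CPM in knockout and at 718, 53.9, 236 and 126 CPM in wild type, lowest in the same pair of libraries as S100a8. The adaptor Myd88 stood at 105, 79.3 and 20.3 CPM in knockout, against 167, 26.0, 75.3 and 47.4 CPM in wild type. Bsg, which encodes the receptor basigin, ran narrowly, at 223, 139 and 149 CPM in knockout and 180, 211, 174 and 93.5 CPM in wild type. For 1 gene the groups did not overlap with knockout higher, beside 1.57% of all genes tested. It was Ly96, the MD-2 partner of Toll-like receptor 4, named after its values were seen. Ly96 was low, with 5 to 24 counts per library. It stood at 3.30, 3.37 and 4.67 CPM in knockout and 1.32 to 2.99 CPM in wild type, with a log2 fold change of 0.96 ± 0.81 (SE; edgeR unadjusted p = 0.265).

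The annexins, membrane-binding partners of S100a4, S100a6, S100a10 and S100a11, differed among themselves in how far they ranged over the libraries. Anxa4 ranged 17.0-fold, Anxa1, the partner of S100a11, 8.27-fold and Anxa3 6.62-fold, and these were named after their values were seen. Of 8 tested, 4 lay above 0 and 4 below (median log2 fold change 0.052) and 0 were called. Anxa2, the partner of S100a10, stood at 874, 860 and 566 CPM in knockout and at 888, 501, 782 and 626 CPM in wild type. Wild type 1 thus had the highest Anxa2 and the lowest S100a10. Anxa6 stood at 144, 76.9 and 129 CPM in knockout, against 123, 106, 82.8 and 122 CPM in wild type. Anxa11, a partner of S100a6, ran between 44.8 and 101 CPM in knockout libraries, against 40.9 to 100.4 CPM in wild-type ones, and Anxa5 between 27.0 and 51.6 CPM in knockout libraries, against 42.3 to 68.6 CPM.

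Other binding partners were tested as 7 genes, with 4 above 0, 3 below (median 0.077) and 0 called. Myh9, the heavy chain of the non-muscle myosin that S100a4 binds, stood at 626, 677 and 270.3 CPM in knockout and at 875, 277, 412 and 357 CPM in wild type. Its lowest libraries were knockout 3 and wild type 2, as for S100a8, while those of S100a4 were wild types 1 and 2. Iqgap1, a scaffold of the cytoskeleton, ran between 322 and 1347 CPM in knockout libraries, against 381 to 1584 CPM in wild-type ones, and the tropomyosin gene Tpm3 between 444 and 779 CPM in knockout libraries, against 280.2 to 731 CPM. Ahnak, which joins the complex of S100a10 and annexin A2, lay between 318 and 347 CPM in knockout libraries, against 209 to 384 CPM in wild-type ones, with its lowest value, like that of S100a10, in wild type 1.

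Of the transcription factors that act on myeloid S100 genes, 7 were tested, with 3 above 0, 4 below (median -0.19) and 0 called. Spi1, which encodes PU.1, stood at 295, 220 and 50.4 CPM in knockout and at 452, 36.5, 147 and 241 CPM in wild type. Cebpb stood at 294, 121 and 29.0 CPM in knockout, against 299, 38.1, 233 and 148 CPM in wild type. Both had their lowest values in knockout 3 and wild type 2. Stat3 ran between 181 and 838 CPM in knockout libraries, against 235 to 1065 CPM in wild-type ones, and the oxidative stress factor gene Nfe2l2 between 168 and 491 CPM in knockout libraries, against 210.3 to 745 CPM. Among other calcium sensors, 4 of 8 tested lay above 0 and 4 below (median 0.026) and 0 were called. The actin-bundling gene Lcp1 stood at 1280, 1133 and 211 CPM in knockout and at 1215, 464, 994 and 610 CPM in wild type. The sorcin gene Sri ran between 113 and 206 CPM in knockout libraries, against 122 to 239 CPM in wild-type ones, and Calm2 between 120 and 183 CPM in knockout libraries, against 117 to 211 CPM.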

How the data were processed

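The authors deposited 1 table of expected counts per Ensembl mouse gene for the 7 libraries, whole numbers that were used as deposited. The submitters' processing notes name mm10, RSEM 1.2.3 and DESeq2 without saying what each was used for. Per the labels' protocols, polyA RNA was purified on columns, treated with DNase and made into QuantSeq libraries. Annotation, strand setting and handling of shared reads are not stated there, which leaves values of overlapping or near-identical genes uncertain. Symbols came from GENCODE M21 and matched 51596 of 51789 genes. The smallest total, 3228292 counts, makes 3 counts worth 0.929 CPM.

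Groups came from the sample titles. Knockout was compared with wild type over the whole table with edgeR 4.0.16 in R 4.3.3 (filterByExpr, TMM, robust quasi-likelihood F test, Benjamini-Hochberg adjustment, call under 0.05) and tested on simulated data. Log2 CPM carry a prior count of 2, and ratios add 0.5 to both counts. SE is the log2 fold change over the root of F. Other settings tried were limma 3.58.1 (voom, with quality weights on the libraries), DESeq2 1.42.0, RLE and upper-quartile factors, other filters, left-out libraries, the replicate block, and the description stem or the mature neutrophil score as a covariate. Apart from the members, the text names genes of fixed lists with a mean of at least 20 CPM, at most 4 per list, and the 3 genes most like each member; 1 gene of these lists is not reported here. Ly96, Anxa1, Anxa3, Anxa4 and markers named singly fall outside this rule and were chosen after their values were seen. The members and lists were chosen with earlier results of these data known.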

Additional observations from a re-analysis of the deposited data

Results flagged for a closer look

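The ratio of S100a8 to S100a9 counts in wild type 4, at 1.91, lay far above the ratios of 0.903, 0.877 and 0.808 in the other wild-type libraries. Its gap to the nearest of them was 0.914 of the whole range of the group, past Dixon's critical value of 0.829 for 4 samples. It was the only value so marked among 28 sets of 4 wild-type values checked, and chance marks about 1 in 20. The 3 knockout libraries are too few for this check. The only other ratio above 1 was 1.34 in knockout 3, which unlike wild type 4 had few neutrophil transcripts.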

How the results depend on the processing

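No S100 gene was called under any of 18 alternatives, and the number of genes called over the table was 0 in 17 of them and 1 with DESeq2. S100a4 and S100a10 lay above 0 in 18 of 18. With 1 library left out, the log2 fold changes, knockout over wild type, ran from -0.91 to 0.16 for S100a1, -0.28 to 0.35 for S100a6, -1.05 to 0.11 for S100a8, -0.51 to 0.95 for S100a9 and -0.037 to 0.66 for S100a13. The difference in the log2 ratio of S100a8 to S100a9, knockout minus wild type, ran from -0.69 to -0.056. Calls over the table and among members were 0 to 0. Signs also turned with limma-voom and quality weights together (S100a1 0.36, S100a8 0.13, S100a11 0.13, S100a13 -0.011), without knockouts 2 and 3 (S100a1 0.61, S100a8 0.43) and with the stem as a covariate (S100a1 0.66, S100a8 0.47), and the cause was not tested. With the replicate number as a block, which leaves out wild type 4, S100a1 was 0.21 and S100a9 -0.040, and 0 members were called. S100a4 was 1.12 there (edgeR unadjusted p = 0.0162). The difference in the log2 ratio of S100a8 to S100a9 was -0.056 in that setting (exact sign-change p = 1.00, smallest possible 0.25). Deviations of libraries with the same number correlated at 0.326, -0.283 and -0.0938, and knockout 3 went best with wild type 2 (0.556). This check cannot decide whether the numbers pair the libraries, since knockout 3 and wild type 2 were also the libraries with the fewest neutrophil transcripts. S100a1 rests on 14 to 55 counts per library.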
